A study of Mus musculus with 2 samples.

Results

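Fucosyltransferases are enzymes that attach the sugar fucose to glycans or proteins. Here 8 of them were followed in mIMCD3 cells, a mouse kidney line of inner medullary collecting duct origin. They were Fut1, Fut2, Fut4, Fut7, Fut8, Fut9, Fut10 and Fut11. They were found by gene name among the spots that were not controls, which gave 13 of the 55681 probes on each array, 1 spot per probe. Fut1 was chosen by its FGF23/unstimulated ratio on these same arrays, which was among the larger ones, and the others because they belong to its family. All their ratios of FGF23 to unstimulated cells are therefore given as a description, with no test.

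The series compared cells given 10 ng/mL of FGF23, a hormone made in bone, for 4 h with unstimulated cells kept in the same serum-containing medium. Total RNA of both went onto each of 2 Agilent 2-colour arrays. By the labels, FGF23 RNA was in Cy3 on array 1 and in Cy5 on array 2, and unstimulated RNA was in the other dye, so the dyes were swapped and the direction of every ratio rests on those labels. The labels do not state whether cultures or extracts differed between the arrays, so the spread between them may be technical. With the dyes swapped, a gene's own dye bias also enters that spread. In bulk RNA, a change in some cells and a smaller one in all cannot be told apart.

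Each kind of fucosyltransferase builds its own linkage. Fut1 and Fut2 add fucose to galactose at the end of a glycan chain and so form the H antigen, the base of the ABO blood groups. Fut4, Fut7 and Fut9 add it to N-acetylglucosamine near the chain end, which gives the Lewis x structures, and with sialic acid the ligands of selectins. Fut8 adds the core fucose at the foot of N-glycans, and Fut10 and Fut11 are distant relatives whose acceptors are less well settled. All draw on GDP-fucose, and the glycans they make are known in kidney from lectins, such as that of Lotus, that stain tubule segments.

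Fut1 rests on a single 60-base probe, so its sequence matters for what was measured. Sequences are from the array files, 30 of the 60 bases each, 5′ to 3′, and positions are those of the whole probe on mm9. For Fut1, on chr7:52876318-52876377 (plus strand), the 30 bases shown are the first. Both Fut10 probes are shown by their last 30 bases, with the hexamer AATAAA, the usual polyadenylation signal, in capitals. They lie on chr8:32371891-32371950 and chr8:32348203-32348262 (plus strand), and the files assign them to different transcript variants.
Fut1 probe: tattcccttccaagagcaacttctattctt
Fut10 probe a (NM_001286422): atgtgggAATAAActggcatagatgtgtgt
Fut10 probe b (NM_134161): tcttttctgcccaAATAAAtacatcttacc
The Fut1 probe shared no run of more than 6 bases, on the same strand, with any of the other 12 family probes. The same held for that of Sec1, a further gene of the H type beside Fut2. Only probes were set against probes, and short shared runs are usual between unrelated ones. Whether the Fut1 probe can bind transcripts of the other genes was not tested. Whether a probe lies in coding sequence or an untranslated region was not analysed here.

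Of the 8 enzymes, 5 were above background in these cells, namely Fut1, Fut4, Fut8, Fut10 and Fut11, on 6 of the 13 probes. Over the whole array 26953 of 55681 probes were above background, a similar share. A probe counted as above background if the scanner software flagged it as well above background on both arrays for at least 1 condition, and these 6 probes were flagged in both conditions on both arrays. Fut2, Fut7 and Fut9 were not, on any of their probes. The brightness of the Fut10 probes lay at mean percentiles 83.1 and 77.8 of all probes, that of Fut1 at 81.8, Fut8 at 78.3, Fut11 at 67.2 and the brighter Fut4 probe at 57.5. Brightness also depends on the probe, so these percentiles give no order of transcript amounts.

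The mean signal of Fut1, in linear scanner units with the background still in it, was 677 in the FGF23 channel on array 1 and 1412 on array 2, against 928 and 478 in the unstimulated channel. Cy5 spots are generally brighter on these arrays, so like is best set against like across the dye swap. In Cy3 the signal was 677 with FGF23 and 478 without, and in Cy5 it was 1412 with FGF23 and 928 without. With the local background median subtracted (36 to 42 units), the same-dye ratios of FGF23 over unstimulated were 1.46 in Cy3 and 1.54 in Cy5. FGF23 was the brighter in both dyes. Over all 26953 probes above background the median of this ratio was 0.966 in Cy3 and 1.06 in Cy5, since the arrays differ a little in overall brightness. Among these probes that of Fut1 lay at percentile 97.7 in Cy3 and 97.4 in Cy5. These ratios use the same spot signals as the ratio by which Fut1 was chosen. A high place was therefore set by the choice and is a description only. Each also sets 1 array against the other.

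**Figure D1:**
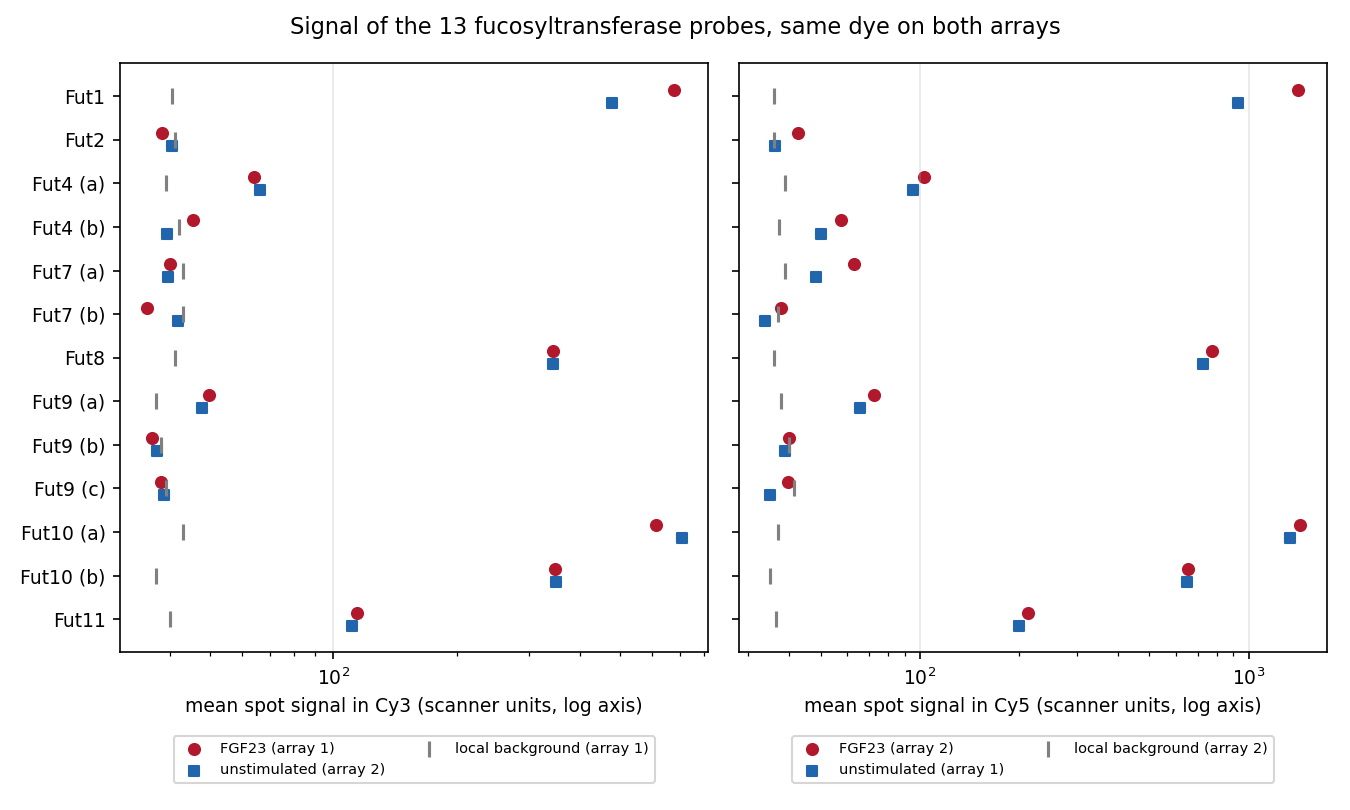
Mean spot signal of the 13 fucosyltransferase probes in Cy3 (left) and Cy5 (right), in scanner units on a log axis, with FGF23 as circles, unstimulated cells as squares and the local background of the FGF23 array as grey bars; letters a to c mark probes of 1 gene from brightest to dimmest. Fut1 had 677 with FGF23 and 478 without in Cy3, and 1412 and 928 in Cy5, while the paired points of Fut8 nearly coincide and 7 probes lie near the background.

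After background correction and loess normalization within each array, the log2 ratio of FGF23 over unstimulated for Fut1 was 0.55 on array 1 and 0.50 on array 2. The mean of 0.52 ± 0.032 (SD, n = 2 arrays) is a 1.44-fold higher level with FGF23, 1.46-fold on array 1 and 1.41-fold on array 2. Over the 19229 genes measured, taking each gene's brightest probe above background, the median log2 ratio was -0.012 on array 1 and 0.015 on array 2, and the SD across genes was 0.15 and 0.13. By mean ratio Fut1 ranked 14 among these genes, with 19 genes above it on array 1 and 117 on array 2. Its rank was 116 with Agilent's own log ratio and 40 with a normexp offset of 0. Across all genes the arrays agreed little, with 46.2% of genes on the same side of 0 on both.

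Fut8, the core fucosyltransferase, had signals of 344 and 774 with FGF23 on arrays 1 and 2, and 729 and 343 in unstimulated cells. Its same-dye ratios were 1.002 in Cy3 and 1.07 in Cy5. Its log2 ratio was -0.097 on array 1 and 0.15 on array 2, with a mean of 0.028 ± 0.18 (SD, n = 2 arrays), so the arrays disagreed on the sign and the spread exceeded the mean. Its probe is on chr12:78576583-78576642 (mm9, plus strand).

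Fut10 was read by both probes shown above. Probe a had 612 and 1436 with FGF23, against 1336 and 707 in unstimulated cells, and log2 ratios of -0.11 and -0.038 on arrays 1 and 2 (mean -0.072 ± 0.048, SD, n = 2 arrays). Probe b, for the other variant, had 348 and 653 with FGF23, against 652 and 350 in unstimulated cells, and log2 ratios of 0.080 and -0.11 (mean -0.014 ± 0.13, SD, n = 2 arrays). In neither dye did probe b differ between conditions by more than a few units.

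Fut11 gave 114 and 214 with FGF23, against 200 and 111 in unstimulated cells. Its log2 ratio was -0.00087 on array 1 and 0.12 on array 2 (mean 0.057 ± 0.082, SD, n = 2 arrays), and its probe is on chr14:21519035-21519094 (mm9, plus strand). Fut4, which can make Lewis x, was dim. Its brighter probe, on chr9:14553224-14553283 (mm9, minus strand), had 64.2 and 103 with FGF23, against 95.5 and 66.2 in unstimulated cells, over a background of 38.5 to 40 units. Its log2 ratio was 0.038 and -0.016, with a mean of 0.011 ± 0.039 (SD, n = 2 arrays).

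**Figure D2:**
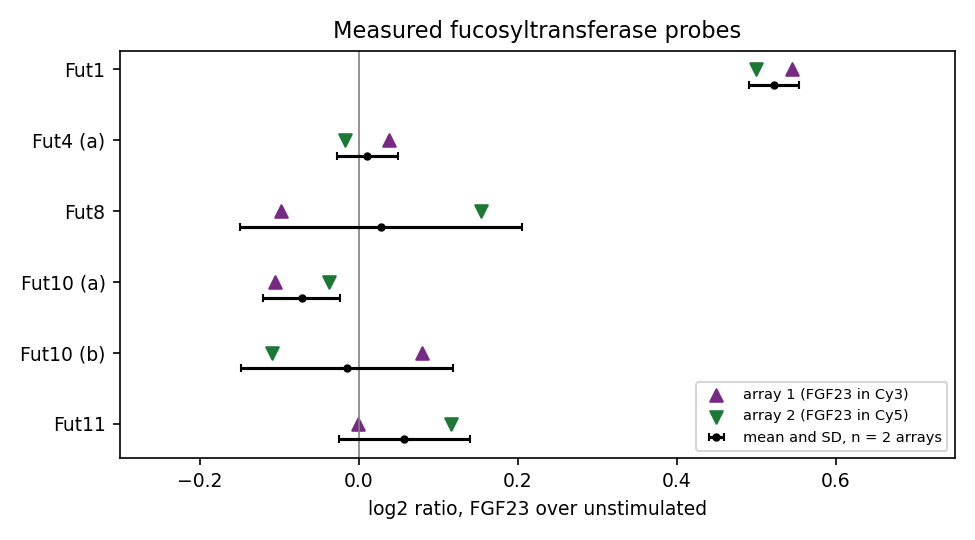
Log2 ratio of FGF23 over unstimulated for the 6 fucosyltransferase probes above background, with array 1 and array 2 as triangles and the mean with its SD (n = 2 arrays) as black points below them. Fut1 lies at 0.55 and 0.50, and the other 5 probes lie between -0.11 and 0.15 on either array.

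The 5 probes other than that of Fut1 thus had log2 ratios from -0.11 to 0.080 on array 1 and from -0.11 to 0.15 on array 2, and means from -0.072 to 0.057. Their same-dye ratios ran from 0.856 to 1.07 in Cy3 and from 1.002 to 1.12 in Cy5. The values of Fut1 lay outside all of these ranges. Since Fut1 was chosen for its ratio, that separation was set by the choice and has no test.

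The remaining 7 probes stayed near background. Their mean signals ran from 35.1 to 49.8 in Cy3 and from 34 to 72.8 in Cy5, over local backgrounds of 37 to 45 and 33 to 41.5. Fut2, the secretor enzyme, had 38.3 and 42.7 with FGF23, against 36.4 and 40.4 in unstimulated cells, and its single probe was flagged nowhere. The Fut7 probes, for the enzyme behind selectin ligands in leukocytes, were not flagged as well above background either. No ratio is given for Fut2, Fut7 and Fut9, because in neither condition was a probe of theirs flagged as well above background on both arrays.

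Fut9 and Fut4 show how far such a reading depends on the probe. The Fut9 probe a, matched to the transcript ENSMUST00000149875, was flagged in Cy5 on both arrays and in Cy3 on neither. That is FGF23 RNA on array 2 and unstimulated RNA on array 1, with 72.8 and 66.0 units. The other Fut9 probes, both for NM_010243, were flagged in no channel. Likewise the second Fut4 probe, which lies at base 1318 of the same transcript as the first (at 3283), was well above background in neither condition, with 45.4 and 57.7 units with FGF23 against 50.2 and 39.3 in unstimulated cells.

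With neither array turned, the same pair of values gives a Cy5/Cy3 ratio, the dye contrast. The size of its mean and the SD between arrays given above come from the same difference. Dye bias of a gene and spread between arrays therefore cannot be told apart here. For Fut1 its arrays gave -0.55 and 0.50, with a mean of -0.022. A gene chosen for like ratios on both arrays must lie near 0 here, so this value is a description and has no test. The other 4 measured enzymes, chosen by name, had mean Cy5/Cy3 log2 ratios from -0.027 for Fut4 to 0.13 for Fut8. In limma's test, adjusted over all genes by Benjamini-Hochberg, 0 of these 4 passed, at adjusted p from 0.77 to 0.95. Of all genes, 131 of 19229 (0.681%) did, 122 of them brighter in Cy5, and 1302 had an unadjusted p under 0.05. These levels rest on the loess step: with median centring the mean Cy5/Cy3 log2 ratio was 0.59 for Fut1, 0.69 for Fut8, 0.66 for Fut10, 0.40 for Fut11 and 0.078 for Fut4.

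By their ratios on both arrays, the 8 named genes nearest to Fut1, in Euclidean distance over the 2 log2 ratios, were Ndrg1, Tmprss6, Nrep, Cyp2s1, Pygl, Lrrc56, Aldoc and Cracdl. Their distances ran from 0.028 to 0.10. Ndrg1 had log2 ratios of 0.55 and 0.53, Tmprss6 0.50 and 0.51, and Nrep 0.51 and 0.46. Pygl, the liver form of glycogen phosphorylase, had 0.61 and 0.45, and Aldoc, the glycolytic enzyme aldolase C, had 0.47 and 0.44. For Lrrc56 and Cracdl a second probe above background had smaller mean ratios, 0.26 against 0.47 and 0.097 against 0.45. With 2 arrays, likeness here means only a similar pair of ratios. Transcripts without a gene name and predicted genes were left out. The nearest of the other measured fucosyltransferases, Fut11, was at a distance of 0.67.

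**Figure D3:**
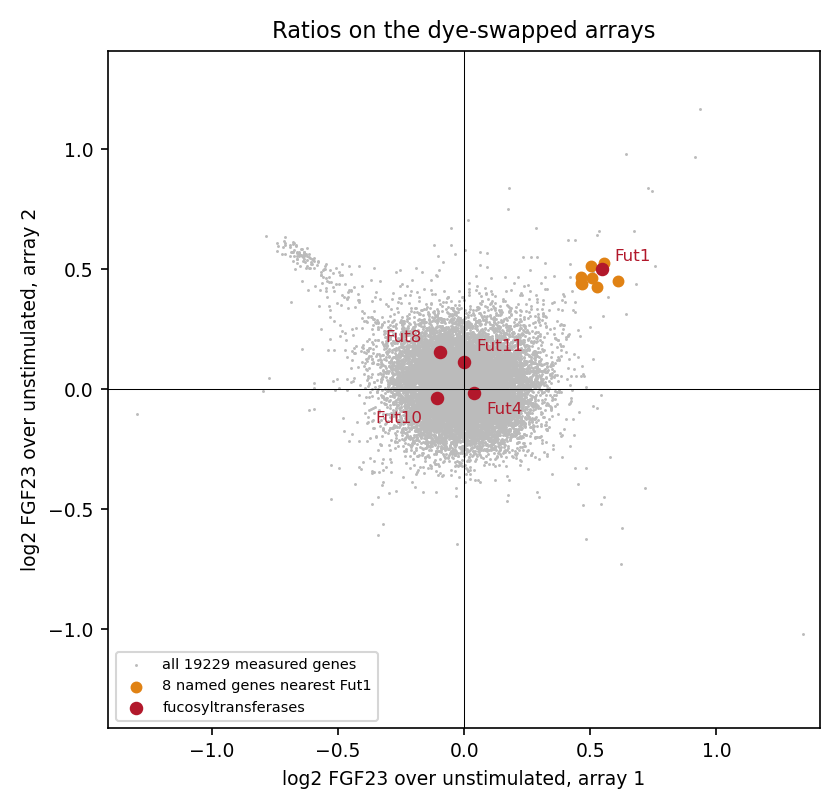
Log2 ratio of FGF23 over unstimulated on array 1 (horizontal) and array 2 (vertical) for all 19229 measured genes (grey), the 8 named genes nearest to Fut1 (orange) and the 5 measured fucosyltransferases (red). Fut1 lies at 0.55 and 0.50 in the upper right, and Fut4, Fut8, Fut10 and Fut11 lie within the main cloud.

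Fucosylation also needs a donor and acceptors, and 54 of 69 genes listed for these and related steps were measured, in 7 lists. Of these 54, 0 passed limma's test in either direction, where 9 of all 19229 genes (0.0468%) passed, all higher with FGF23. That background depends on the processing: 0 genes passed with Agilent's log ratio or with median centring, and with a robust prior that follows an intensity trend 59 passed higher and 20 lower. None of the 54 reached an unadjusted p under 0.05 either, against 500 higher and 251 lower of all 19229 genes. At that share few of 54 genes would reach it, so this count does not set the lists apart. The mean log2 ratios of the 54 ran from -0.18 to 0.18 with a median of -0.0045, beside -0.00064 over all genes. Of the 54, 13 were above 0 on both arrays and 13 below on both, where 46.2% of all genes had the same sign on both.

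All 11 genes of GDP-fucose supply were above background, and 0 passed in either direction (median log2 ratio -0.014). Gmds, which starts GDP-fucose synthesis from GDP-mannose, had 0.27 on array 1 and -0.066 on array 2. Gfus, which completes that route, had 0.0062 and -0.10. Fcsk, the kinase that salvages free fucose, had 0.096 and 0.11, with 0.062 and 0.059 at a second probe, and Fpgt, the next salvage enzyme, had 0.055 and -0.011. The Golgi GDP-fucose transporter Slc35c1 had -0.030 and -0.17, and the related Slc35c2 had -0.070 and -0.021. Among the genes that make GDP-mannose, Pmm2 had the largest difference between arrays, at -0.36 and 0.0031, and Pmm1, Mpi, Gmppa and Gmppb had means from -0.030 to 0.022. Second probes of Pmm1 and Gmppa had means of the other sign, -0.065 and 0.049.

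Protein O-fucosylation puts fucose directly on proteins, and on Notch-type and thrombospondin-type domains it is the work of enzymes outside this family. Of the 6 measured genes listed for those domains, 0 passed in either direction (median -0.012). Pofut1, which modifies Notch, had log2 ratios of 0.033 and -0.12, and its second probe had -0.080 and -0.028. Pofut2, which modifies thrombospondin repeats, had -0.12 and -0.031. The Fringe enzymes Lfng, Mfng and Rfng, which lengthen the O-fucose on Notch, had means from -0.018 to 0.014, with 0.13 at a second Mfng probe and 0.030 at a second Rfng probe. B3glct, which does so on thrombospondin repeats, had 0.14 and 0.053. The fucosidases, which remove fucose in lysosomes or outside the cell, also did not pass (0 of 2). Fuca1 had -0.0021 and 0.14, and Fuca2 had 0.19 and 0.098, although 1 of the other Fuca2 probes had a mean of -0.082.

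Of the 7 measured genes that trim and branch N-glycans, 0 passed (median 0.035). Mgat3, which adds the bisecting residue, had 0.081 and 0.21, Mgat2 had -0.12 and -0.041, and the mannosidase Man2a2 had 0.15 and 0.0098, with 0.19 and 0.17 at a second probe. Of 14 measured genes listed for chains that accept fucose near their ends, 0 passed (median -0.0051). B3gnt3, which extends such chains, had 0.084 and 0.25, and the galactosyltransferases B4galt6 and B4galt4 had means of 0.11 and 0.087, with 0.051 and -0.0061 at their second probes. Of 11 sialyltransferases, which add sialic acid to glycans, 0 passed (median 0.026). St6galnac2 had 0.19 and 0.18, St3gal1 had 0.18 and 0.098 and St6galnac1 had -0.023 and -0.13. A second St6galnac1 probe had a mean of 0.033. The transferase of ABO groups (Abo), which acts on the product of Fut1, was not above background. In that last list 3 of 6 genes were measured and 0 passed (median -0.041), with B4galnt2 at -0.18 and -0.066 (its FGF23 channel above background on 1 of 2 arrays), Ggta1 at -0.17 and 0.084, and B4galnt1 at 0.0094 and -0.038.

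**Figure D4:**
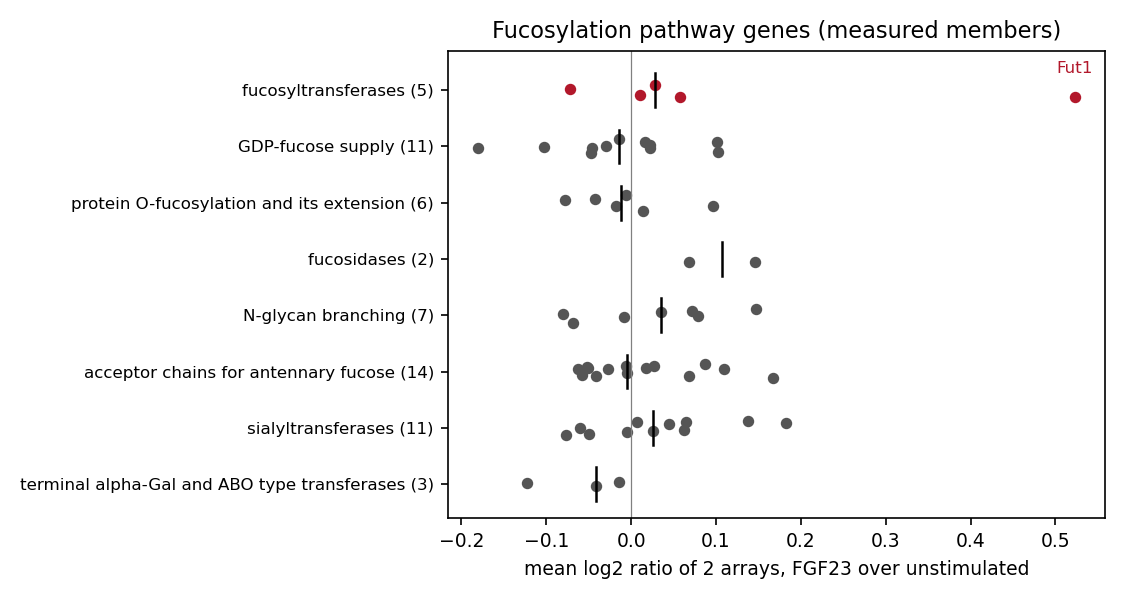
Mean log2 ratio of FGF23 over unstimulated (n = 2 arrays) for the measured fucosyltransferases (red) and the measured genes of 7 fucosylation lists (grey), 1 point per gene with the list median as a black line and the number of genes in brackets; points are spread vertically for legibility. Fut1 lies at 0.52, and the 54 list genes lie between -0.18 and 0.18.

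Fut1 and Fut2 lie close together on mouse chromosome 7, so the genes around them were read in order. Fgf21, a metabolic hormone gene of the FGF19 subfamily to which FGF23 belongs, is next to Fut1. It had log2 ratios of 0.42 on array 1 and -0.050 on array 2 (mean 0.19 ± 0.33, SD, n = 2 arrays), so its arrays disagreed. Its mean was 0.48 by Agilent's log ratio and 0.40 at offset 0. Bcat2, Hsd17b14, Plekha4 and Ppp1r15a, further on the same side, had means from -0.020 to 0.11. A second Plekha4 probe had 0.19 and 0.050, a mean of 0.12. Beyond Fut2, the clock-controlled transcription factor gene Dbp had 0.28 and 0.30 (mean 0.29 ± 0.017, SD, n = 2 arrays), with 0.24 and 0.36 at its second probe. It did not pass limma's test over all genes (adjusted p = 0.69). Car11 had -0.15 and -0.10, a mean of -0.12, against means of -0.35 by Agilent's log ratio and -0.25 at offset 0. Sphk2 had -0.067 and -0.036. Sec1 and Ntn5 were not above background. Of the genes between Fut1 and Fut2, which were outside the rule for named genes and chosen after their values were seen, Rasip1 had 0.071 and -0.042, a mean of 0.014, against 0.17 with Agilent's log ratio. Izumo1 and Mamstr were not above background. Of the 10 neighbours under the rule 8 were measured, and 0 of these, and not Rasip1, passed limma's test.

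**Figure D5:**
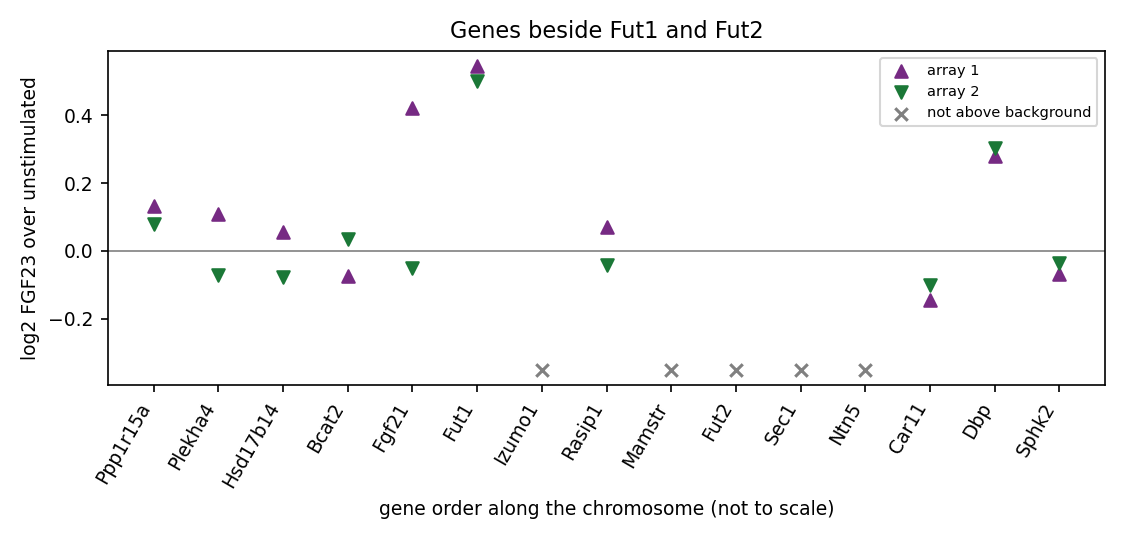
Log2 ratio of FGF23 over unstimulated on array 1 and array 2 for Fut1, Fut2 and the named genes around them, in their order along the chromosome (not to scale), with genes not above background as crosses at the bottom. Fut1 lies at 0.55 and 0.50, Dbp at 0.28 and 0.30, and the arrays disagree for Fgf21 at 0.42 and -0.050.

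Across the arrays, 48.2% to 48.7% of 59305 spots that were not controls were well above background in Cy3 and 54.2% to 55.2% in Cy5, and no spot was saturated. Of 14 markers of collecting duct and ureteric epithelium 13 were measured, among them Aqp2, Cdh1, Epcam and Pax2, and Aqp3 was not. Their summed level ranged from 17.4 to 17.5 on the log2 scale in the FGF23 channels and in the unstimulated channels. None of 5 fibroblast markers was measured, and of the proximal tubule, distal tubule, intercalated cell, macrophage and endothelial markers 3 of 6, 2 of 4, 2 of 4, 3 of 5 and 2 of 5 were, with 0 past the test. The macrophage markers' summed level was 12.1 in the FGF23 channels, against 12.0 in the unstimulated channels. That sum left out Ptprc and Adgre1, which were not above background. For endothelial markers the sum was 11.4 in both conditions. Proximal tubule markers had 9.4 to 9.5 with FGF23 and 9.4 without, and distal tubule markers 8.1 and 8.0 to 8.2. Intercalated cell markers had 7.6 to 7.8 with FGF23 and 7.6 to 7.7 without. The part of any of these markers in the ratio of Fut1 was not tested.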

How the data were processed

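The deposited scanner files give, per spot and dye, a mean signal, a local background median and a processed intensity in linear scanner units, which the authors obtained with Agilent Feature Extraction, per the file headers version 11.5.1.1. They also hold a log10 ratio of Cy5 over Cy3, background-subtracted and dye-normalized by that software per the file headers, and flags of 0 or 1 that mark outliers, saturation and signal well above background. Probe positions are on mm9 per the file headers. No label gives a culture or extraction batch.

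From the mean signals, background was corrected with normexp (offset 50) and each array normalized by loess with limma 3.58.1 under R 4.3.3, where controls had weight 0. Ratios were turned to FGF23 over unstimulated by the labels' dyes. Probes above background in a condition on both arrays were kept (26953 of 55681), and a gene was its brightest kept probe. Symbols were updated through RefSeq transcripts (GRCm38.p6) for 28026 probes, of which 1651 were renamed. That table also gave the order of the genes beside Fut1. Percentiles and summed marker levels used signals scaled between arrays (Aquantile).

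Tests used lmFit and eBayes of limma over both arrays, with Benjamini-Hochberg adjustment over all genes, threshold 0.05, with 1 residual degree of freedom and 11.9 prior ones, so p-values rest mostly on a spread shared by all genes. On simulated data it recovered known changes but also called more unchanged genes than its threshold allows. The number of arrays limits the precision. An exact permutation test of 2 arrays cannot reach that threshold.

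The genes, lists and rules were chosen with earlier results of these data known. Named were every family probe, all measured genes of the donor, O-fucose and fucosidase lists, the 3 largest ratios of each other list, the 8 genes nearest Fut1, and 5 named genes on each side of the Fut1 and Fut2 pair. Alternatives were Agilent's log ratio, offset 0, median centring, averaged probes, other filters on dim probes, an intensity trend with a robust prior, and each array alone.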

Additional observations from a re-analysis of the deposited data

How the results depend on the processing

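The mean log2 ratio of Fut1 was 0.56 with Agilent's log ratio and 0.56 with a normexp offset of 0, against 0.52, and 0.51 with median centring. It was 0.50 to 0.55 on single arrays. Median centring leaves the dependence of the dyes on brightness in place, by its construction, and with it the arrays read -0.076 and 1.099. Fut1 has 1 probe, so averaging probes leaves its value as it is. Fut1 ranked 14th of all genes by mean ratio, 116th with Agilent's log ratio and 40th with offset 0. For Fut4, Fut8, Fut10 and Fut11, the 13 alternative mean ratios over both arrays moved by at most 0.029 on the log2 scale, and 0 changed sign. Family members above background numbered 5 under the rule used and under the stricter one, and 6 with the positive-and-significant flag, which adds Fut9.

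Genes past the test for FGF23 numbered 9. They were 0 with Agilent's log ratio, 0 with median centring, 5 with offset 0, 17 over averaged probes (16 higher and 1 lower) and 79 with the intensity trend and robust prior (59 higher and 20 lower). They were 10 with no filter on dim probes and 10 with the stricter one. Genes past the test of the dye contrast were 131, with 0 under Agilent's log ratio, 16470 under median centring, 0 with offset 0, 81 over averaged probes, 200 with the trend, 154 with no filter and 134 with the stricter one. Of the fucosylation lists 0 genes passed under any of these. Of 28 alternative list medians 3 changed sign, and the largest move was 0.043. Of 16 alternative Cy5/Cy3 means of family members 3 changed sign, and the largest move was 0.62, under median centring. Of 29 alternative means of the neighbours 0 changed sign, and the largest move was 0.30, that of Fgf21. A single array leaves no degree of freedom for a test, so those are values only. The cause was not tested. The fit given is already paired, since each ratio sets both conditions of 1 array against each other. Low signal limits Fut2, Fut7, Fut9 and Fut4 most.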
